A study of Homo sapiens with 4 samples.

Results

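The genes of G1 to S control decide whether a cell that has divided starts another round of DNA synthesis. The 35 genes described here are the D and E cyclins, their kinases, the inhibitors of those kinases, the RB family, the E2F factors with their DP partners, and a few genes that switch the kinases on or hold E2F promoters silent. They were taken by gene symbol from a table of 60595 genes, and all 35 had a row. Transcript levels were given as FPKM, a density of sequenced fragments scaled for transcript length and library size. The genes were chosen for their role and not for their values, although results of the same data were already known.

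RNA was sequenced from A375, an established human melanoma cell line that carries, as background, an activating BRAF mutation and truncating mutations of CDKN2A. The labels give all 4 libraries as wild type, so that no transgene or deletion was added. One group of 2 libraries was treated with paroxetine hydrochloride, a serotonin reuptake inhibitor, and the other group of 2 libraries received DMSO, its solvent. Cells grew in DMEM with 10% serum. Neither dose nor exposure time is stated in the labels. Nothing says that libraries of a group come from separate cultures, so every p-value measures only the spread among these samples, and that spread may be technical. The FPKM values of a library summed to 606197 and 640029 in the paroxetine libraries and to 655607 and 655004 in the DMSO libraries. No read totals are listed, so the depth behind each value is unknown. Of 9 melanocyte and melanoma markers, SOX10, the neural crest transcription factor, stood at 275 and 271 FPKM in the paroxetine libraries and 193 and 181 FPKM in the DMSO libraries, while S100B, a calcium-binding protein of melanocytes, fell, at 1.89 and 2.70 FPKM in the paroxetine libraries and 5.09 and 6.66 FPKM in the DMSO libraries (-1.06; limma, adjusted p = 0.0134). That call was lost with no filter, without DMSO replicate 2 or without paroxetine replicate 1 (0.0537 to 0.0835). MITF, the melanocyte transcription factor, had both paroxetine values below both DMSO values and was not called (-0.35; limma, adjusted p = 0.0829), S100A1 was not called either, and the pigment genes TYRP1, DCT, MLANA and PMEL were under 1 FPKM in every library and TYR was listed at 0. The 9 markers summed to 284 to 288 FPKM in the paroxetine libraries and 203 to 209 FPKM in the DMSO libraries. Of 12 markers of keratinocytes, epithelium, fibroblasts, blood and endothelium, 9 were under 1 FPKM in all 4 libraries. The 12 summed to 58.5 and 62.9 FPKM in the paroxetine libraries and 32.8 and 31.4 FPKM in the DMSO libraries, most of it from CD68, a macrophage marker, at 51.4 and 56.8 FPKM in the paroxetine libraries and 25.2 and 21.7 FPKM in the DMSO libraries. The 3 markers tested were all called, with CD68 higher (1.17; limma, adjusted p = 0.00109), the fibroblast and pericyte receptor PDGFRB higher (0.63; limma, adjusted p = 0.0485, lost in 7 of 10 alternatives) and the keratinocyte keratin KRT14 lower (-1.49; limma, adjusted p = 0.00742). The part of these markers in the results below was not tested.

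In the textbook account, growth signals raise the D cyclins, which bind CDK4 and CDK6 and begin to phosphorylate RB. Released E2F factors then turn on cyclin E, which with CDK2 completes the phosphorylation of RB, and the genes of DNA synthesis. The INK4 proteins block CDK4 and CDK6, the CIP/KIP proteins act mainly on CDK2 complexes, and in quiescent cells E2F4 with RBL1 or RBL2 and the MuvB core forms the DREAM complex that keeps cell cycle promoters silent. Melanomas often carry lesions of this pathway, with loss of CDKN2A the best known.

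E2F factors bind a short sequence close to the transcription start of their target genes, several of which are themselves members of the pathway. The stretches below are the 150 bases upstream of the RefSeq start on GRCh38.p14, 5′ to 3′ on the strand of the gene. Capitals mark TTTCCCGC, TTTCGCGC, TTTGCCGC or TTTGGCGC, or their reverse complements. The first 4 are shown because these genes fell and hold a match, E2F3 because it holds a match and was not called, and E2F7 because it rose and holds none.
E2F1, chr20:33686386-33686535, minus strand: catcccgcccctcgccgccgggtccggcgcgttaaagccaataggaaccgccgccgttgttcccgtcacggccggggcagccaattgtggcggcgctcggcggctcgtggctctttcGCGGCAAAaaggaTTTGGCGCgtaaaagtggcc
E2F2, chr1:23531234-23531383, minus strand: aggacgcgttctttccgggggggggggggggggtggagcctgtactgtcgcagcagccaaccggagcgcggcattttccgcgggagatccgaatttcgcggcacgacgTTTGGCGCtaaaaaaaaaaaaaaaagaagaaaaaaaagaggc
RBL1, chr20:37095998-37096147, minus strand: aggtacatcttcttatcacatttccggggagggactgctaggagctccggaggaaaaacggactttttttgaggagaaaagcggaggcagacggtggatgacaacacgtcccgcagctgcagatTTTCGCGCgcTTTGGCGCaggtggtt
CDC25A, chr3:48188418-48188567, minus strand: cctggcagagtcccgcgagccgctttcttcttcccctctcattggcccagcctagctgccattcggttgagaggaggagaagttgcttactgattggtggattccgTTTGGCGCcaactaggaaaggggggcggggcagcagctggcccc
E2F3, chr6:20401729-20401878, plus strand: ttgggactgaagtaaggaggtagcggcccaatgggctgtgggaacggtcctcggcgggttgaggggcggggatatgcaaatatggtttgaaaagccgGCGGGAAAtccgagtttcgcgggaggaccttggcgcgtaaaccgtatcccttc
E2F7, chr12:77065570-77065719, minus strand: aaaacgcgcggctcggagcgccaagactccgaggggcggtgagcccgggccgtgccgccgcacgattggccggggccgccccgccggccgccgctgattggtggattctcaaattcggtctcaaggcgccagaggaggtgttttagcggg

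The promoter of E2F1 has a match in each orientation, at bases -33 to -26 and -20 to -13 from the start, and that of RBL1 has 2 matches in the orientation of the gene, at -26 to -19 and -16 to -9. In E2F2 the match lies at -42 to -35, in CDC25A at -44 to -37 and in E2F3 at -53 to -46. TFDP1 has 1 match farther upstream, at -120 to -113, and its stretch is not printed. A match is a description of letters and not a site shown to be bound.

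In paroxetine-treated cells most of the machinery that drives entry into S phase was lower. Of the 7 CIP/KIP and INK4 inhibitor genes 4 were called higher, 1 was called lower, 1 was not called and 1 was not tested. The test was limma on log2(FPKM + 1), two-sided, over the 15511 genes with 1 FPKM or more in 2 or more libraries, and a gene was called at a Benjamini-Hochberg adjusted p under 0.05. Of the 35 members 33 were tested, of which 19 fell and 5 rose, against 20.5% of all tested genes called lower and 18.1% called higher (38.6% in either direction). CCND2, a cyclin D gene, and CDKN2B, an INK4 gene, were listed at 0 in all 4 libraries and were not tested. The median log2 change of the 33 tested members was -0.51, against -0.0047 over all genes tested. E2F2 and E2F8 were under 1 FPKM in the paroxetine libraries and passed the filter through the DMSO libraries. A gene can only do so by being lower, so their direction was fixed in advance. They count among the 19 that fell and among the calls below that held, and give no support of their own there. No tested member passed only through the paroxetine libraries.

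In 31 of the 33 members both paroxetine libraries lay on 1 side of both DMSO libraries, 25 below and 6 above, against 36.3% of all genes tested below, 35.3% above and 71.6% either way. RBL2 and E2F5 were the exceptions. Of the 24 calls 17 held under every one of the 11 alternative settings that tested the gene, 15 of them lower and 2, CDKN1A and CDKN1C, higher. In cultures measured in bulk, fewer cells in a phase of the cycle and less RNA per cell cannot be told apart. Fold changes below are differences of log2(FPKM + 1) ± SE, paroxetine minus DMSO, which understate the change of genes with low values, and the share that the paroxetine mean makes of the DMSO mean is given in percent of FPKM.

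**Figure D1:**
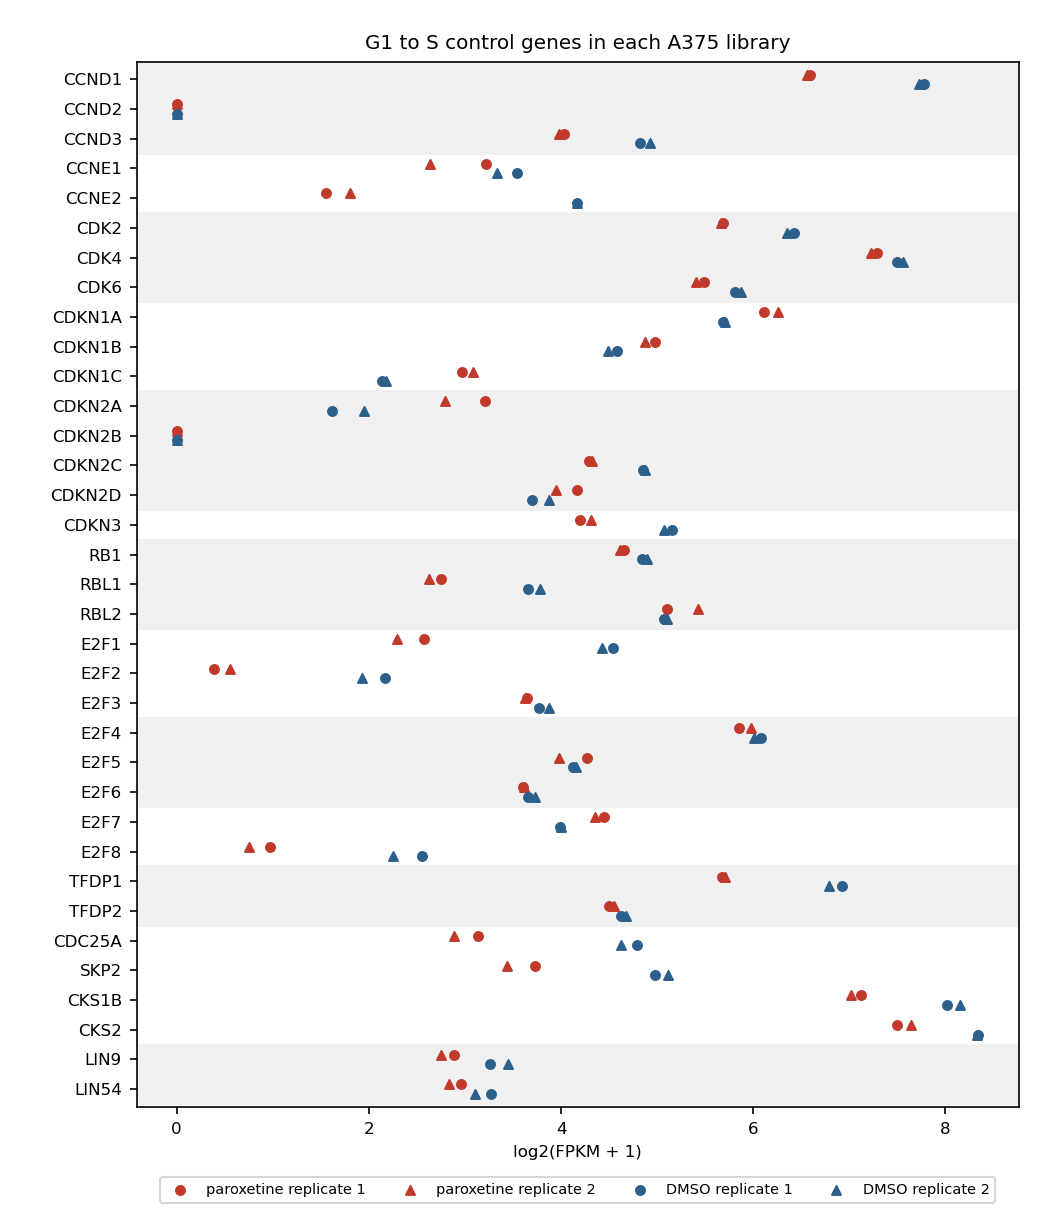
Level of each of the 35 genes as log2(FPKM + 1), with 1 symbol per library, paroxetine in red above DMSO in blue. Grey and white bands separate the classes, and a reader should see that the red symbols lie left of the blue ones for CCND1 to CDK6 apart from CCND2 at 0, right of them for CDKN1A, CDKN1B, CDKN1C and CDKN2A, and among or close to them for E2F3 to E2F6.

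Of the 5 cyclin genes 3 fell, CCNE1 was not called and CCND2 was listed at 0. CCND1, the most abundant D cyclin in each library, stood at 95.2 and 93.0 FPKM in the paroxetine libraries, against 219 and 210.2 FPKM in the DMSO libraries. The paroxetine libraries were both far below the DMSO libraries, and the change was -1.18 ± 0.05 (limma, adjusted p = 0.000284), which leaves 43.9% of the DMSO mean (ENSG00000110092, GENCODE 29 on GRCh38, chromosome 11, 69641087 to 69654474, plus strand). CCND3, a further partner of CDK4 and CDK6, had 15.4 and 14.7 FPKM in the paroxetine libraries and 27.4 and 29.5 FPKM in the DMSO libraries. Both paroxetine values again lay below both DMSO values, with a change of -0.87 ± 0.08 (limma, adjusted p = 0.00134). CCND1 thus made up 86.1% and 86.3% of the summed cyclin D FPKM in the paroxetine libraries and 88.9% and 87.7% in the DMSO libraries.

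Of the E cyclins, which activate CDK2 at the start of S phase, CCNE2 fell and CCNE1 was not called. CCNE2 had 1.93 and 2.50 FPKM in the paroxetine libraries and 16.9 and 17.0 FPKM in the DMSO libraries. Its log2 change of -2.48 ± 0.14 (limma, adjusted p = 0.000425) was the most negative of the 33 tested members (ENSG00000175305). CCNE1 had 8.32 and 5.23 FPKM in the paroxetine libraries and 10.7 and 9.10 FPKM in the DMSO libraries. The CCNE1 groups did not overlap, but the change of -0.51 (95% interval -1.06 to 0.04) was not called (limma, adjusted p = 0.121). Without paroxetine replicate 1 it was called, at -0.80 (limma, adjusted p = 0.0441), and without paroxetine replicate 2 it was -0.22 (0.363). Exons of CCNE2 overlap those of INTS8, on the opposite strand, over 37.0% of the length of CCNE2's exons, and INTS8 was higher, at 52.8 and 48.1 FPKM in the paroxetine libraries and 32.4 and 33.7 FPKM in the DMSO libraries. The strand setting of the counting is not known, so reads of the partner could sit in the value of CCNE2.

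All 3 kinases were lower by modest amounts. CDK2, the partner of cyclin E, had 50.4 and 49.6 FPKM in the paroxetine libraries and 84.6 and 80.6 FPKM in the DMSO libraries. Its groups were well apart, with a change of -0.71 ± 0.06 (limma, adjusted p = 0.000983), and 60.6% of the DMSO mean was left. CDK6, a partner of D cyclins, had 44.0 and 41.5 FPKM in the paroxetine libraries and 55.0 and 57.6 FPKM in the DMSO libraries, and its change of -0.39 ± 0.06 was called (limma, adjusted p = 0.00814) except without DMSO replicate 2 (0.0564). CDK4, the most abundant of the kinases, had 155 and 149 FPKM in the paroxetine libraries and 179 and 187 FPKM in the DMSO libraries. These groups did not overlap either, but the change of -0.27 ± 0.05 (limma, adjusted p = 0.0146) shrank to -0.07 under quantile normalization (0.366), and the call was also lost without the mean-variance trend (0.0776) and without DMSO replicate 1 (0.0583), DMSO replicate 2 (0.0869) or paroxetine replicate 2 (0.0663). Exons of CDK4 overlap those of TSPAN31 on the opposite strand over 43.2% of their length, and TSPAN31 stood at 39.3 and 32.8 FPKM in the paroxetine libraries and 29.6 and 23.2 FPKM in the DMSO libraries. Exons of 5 members in all, CCND1, CCNE2, CDK2, CDK4 and E2F5, overlap those of an expressed gene on the opposite strand over at least 10% of their length, and none of the 35 overlaps the exons of an expressed gene on the same strand. The partner of CCND1, LTO1, was lower (-0.46; limma, adjusted p = 0.0114), as was that of CDK2, the antisense gene AC025162.1 (-0.89; limma, adjusted p = 0.0109), and that of E2F5, RBIS, was not called (0.06; limma, adjusted p = 0.537).

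The inhibitors of the CIP/KIP family all rose. CDKN1A, which encodes p21, an inhibitor of CDK2 complexes, had 68.3 and 75.3 FPKM in the paroxetine libraries and 50.3 and 51.3 FPKM in the DMSO libraries. Both paroxetine values were higher than both DMSO values, and the change was 0.49 ± 0.07 (limma, adjusted p = 0.0048; ENSG00000124762, chromosome 6, 36676460 to 36687339, plus strand), or 141% of the DMSO mean. CDKN1C, which encodes p57, reached 6.82 and 7.46 FPKM in the paroxetine libraries, against 3.41 and 3.53 FPKM in the DMSO libraries, a change of 0.86 ± 0.13 (limma, adjusted p = 0.00663) and 206% of the DMSO mean. CDKN1B, which encodes p27, had 30.6 and 28.2 FPKM in the paroxetine libraries and 23.0 and 21.4 FPKM in the DMSO libraries. Its groups were apart and its change was 0.39 ± 0.08 (limma, adjusted p = 0.0161), but the call was lost without DMSO replicate 1 (0.0543), DMSO replicate 2 (0.0847) or paroxetine replicate 1 (0.0851). The summed FPKM of the 3 CIP/KIP genes was 0.874 and 0.961 of the summed FPKM of the D and E cyclins in the paroxetine libraries and 0.280 and 0.287 of it in the DMSO libraries.

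The INK4 inhibitors did not move as 1 group. CDKN2A rose, at 8.22 and 5.94 FPKM in the paroxetine libraries and 2.06 and 2.86 FPKM in the DMSO libraries. The groups did not overlap and the change of 1.22 ± 0.21 (limma, adjusted p = 0.00954) was the most positive of the 33 tested members (ENSG00000147889, chromosome 9, 21967753 to 21995301, minus strand). The call was lost without DMSO replicate 1 (0.0593) or paroxetine replicate 1 (0.0564). The gene encodes both p16 and ARF from different first exons, and a value per gene does not separate them. A375 carries truncating mutations of CDKN2A, so a higher RNA value does not show that a working inhibitor was higher. CDKN2C, which encodes p18, fell, with 18.6 and 18.9 FPKM in the paroxetine libraries and 28.0 and 28.4 FPKM in the DMSO libraries, a change of -0.56 ± 0.07 (limma, adjusted p = 0.0033). CDKN2D, which encodes p19, had 17.0 and 14.5 FPKM in the paroxetine libraries and 12.0 and 13.7 FPKM in the DMSO libraries. The CDKN2D groups were apart, but the change of 0.27 (95% interval -0.03 to 0.57) was not called (limma, adjusted p = 0.133). The summed INK4 FPKM was 43.8 and 39.4 in the paroxetine libraries and 42.0 and 44.9 in the DMSO libraries, so the sums overlapped while the makeup differed, with CDKN2A at 18.7% and 15.1% of the sum in the paroxetine libraries and 4.89% and 6.36% in the DMSO libraries.

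**Figure D2:**
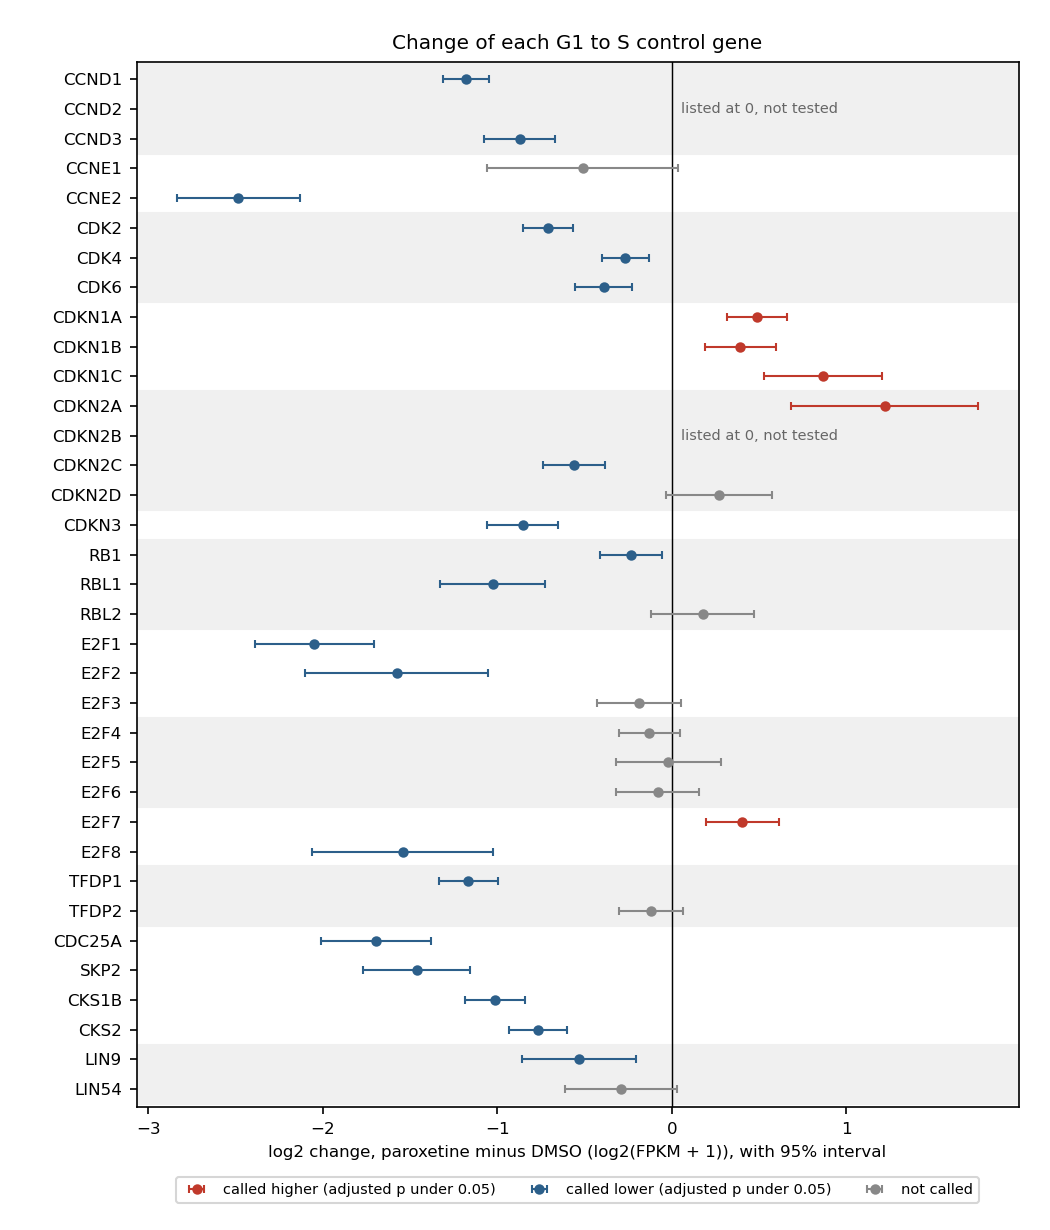
Difference of log2(FPKM + 1), paroxetine minus DMSO, for each gene with its 95% interval from limma, red for genes called higher, blue for genes called lower and grey for genes not called. The points run from CCNE2 at -2.48 to CDKN2A at 1.22, and CCND2 and CDKN2B, listed at 0, have no point or interval.

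Of the pocket proteins of the RB family, which hold E2F in check, RBL1 and RB1 were called lower and RBL2 was not called. RBL1, which encodes p107, fell, with 5.74 and 5.17 FPKM in the paroxetine libraries and 11.6 and 12.7 FPKM in the DMSO libraries, a change of -1.03 ± 0.12 (limma, adjusted p = 0.00267). RBL2, which encodes p130, the pocket protein typical of quiescent cells, had 33.3 and 42.0 FPKM in the paroxetine libraries and 32.6 and 33.4 FPKM in the DMSO libraries. The RBL2 groups overlapped and the change of 0.18 (95% interval -0.12 to 0.47) was not called (limma, adjusted p = 0.283). It was 0.34 (0.0556) without paroxetine replicate 1 and 0.015 (0.903) without paroxetine replicate 2. RB1 had 24.3 and 23.5 FPKM in the paroxetine libraries and 27.7 and 28.8 FPKM in the DMSO libraries. The RB1 groups were apart by a small amount, and the call at -0.23 ± 0.07 (limma, adjusted p = 0.0489) was lost under 9 of the 11 alternatives (adjusted p up to 0.175). RBL2 reached 5.81 and 8.12 times the FPKM of RBL1 in the paroxetine libraries and 2.82 and 2.63 times it in the DMSO libraries.

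Among the E2F factors the activators E2F1 and E2F2 fell and E2F3 was not called. E2F1, which drives genes of DNA synthesis, had 4.94 and 3.89 FPKM in the paroxetine libraries and 22.2 and 20.4 FPKM in the DMSO libraries. The gap between the groups was many times the spread within them, and 20.7% of the DMSO mean was left (-2.05 ± 0.13; limma, adjusted p = 0.000613; ENSG00000101412, chromosome 20, 33675683 to 33686404, minus strand). E2F2 had 0.312 and 0.467 FPKM in the paroxetine libraries and 3.50 and 2.81 FPKM in the DMSO libraries, or 12.4% of the DMSO mean, with a change of -1.58 ± 0.21 (limma, adjusted p = 0.0039). Because E2F2 was low, the pseudocount mattered, and the change reached -2.74 on log2(FPKM + 0.1). E2F2 passed the filter only through the DMSO libraries, so its direction was fixed in advance. E2F3 had 11.5 and 11.3 FPKM in the paroxetine libraries and 12.7 and 13.7 FPKM in the DMSO libraries. The E2F3 groups did not overlap, but the change of -0.19 (95% interval -0.43 to 0.05) was not called (limma, adjusted p = 0.173).

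None of the 3 canonical repressor genes was called (0 in limma at an adjusted p under 0.05, and 0 at an unadjusted p under 0.05). E2F4, the most abundant E2F and the one found in DREAM, had 56.8 and 62.1 FPKM in the paroxetine libraries and 66.7 and 63.4 FPKM in the DMSO libraries, a difference of -0.13 (95% interval -0.30 to 0.05). E2F5, which also pairs with pocket proteins, had 18.2 and 14.8 FPKM in the paroxetine libraries and 16.5 and 16.9 FPKM in the DMSO libraries, and the groups overlapped. E2F6, which represses without pocket proteins, had 11.1 and 11.3 FPKM in the paroxetine libraries and 11.6 and 12.3 FPKM in the DMSO libraries. The intervals of E2F5 (-0.32 to 0.28) and E2F6 (-0.32 to 0.16) leave room for changes of that size in either direction.

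The atypical repressors E2F7 and E2F8, which bind DNA without a DP partner and are known to shut down E2F targets late in S phase, moved in opposite directions. E2F7 had 20.8 and 19.4 FPKM in the paroxetine libraries and 14.9 and 15.0 FPKM in the DMSO libraries. Its groups were apart and its change was 0.40 ± 0.08 (limma, adjusted p = 0.0154; ENSG00000165891, chromosome 12, 77021247 to 77065580, minus strand), a call that was lost when any 1 of the 4 libraries was left out (adjusted p 0.0514 to 0.0824). E2F8 had 0.958 and 0.689 FPKM in the paroxetine libraries and 4.89 and 3.76 FPKM in the DMSO libraries. E2F8 was called at -1.54 ± 0.20 (limma, adjusted p = 0.00402), but it passed the filter only through the DMSO libraries, so its direction was fixed in advance. E2F7 thus reached 21.7 and 28.2 times the FPKM of E2F8 in the paroxetine libraries and 3.05 and 3.97 times it in the DMSO libraries. That ratio changed mainly through E2F8, whose paroxetine values were under 1 FPKM.

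Over all 8 E2F genes the summed FPKM was 125 and 124 in the paroxetine libraries and 153 and 148 in the DMSO libraries. E2F1 made up 3.96% and 3.14% of it in the paroxetine libraries and 14.5% and 13.8% in the DMSO libraries, and E2F7 16.6% and 15.7% in the paroxetine libraries and 9.74% and 10.1% in the DMSO libraries. E2F4 was the largest share in each library, at 45.6% and 50.1% in the paroxetine libraries and 43.6% and 42.8% in the DMSO libraries. These shares are descriptions, because an exact two-sided permutation test of 2 against 2 libraries cannot give a p below 0.333.

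**Figure D3:**
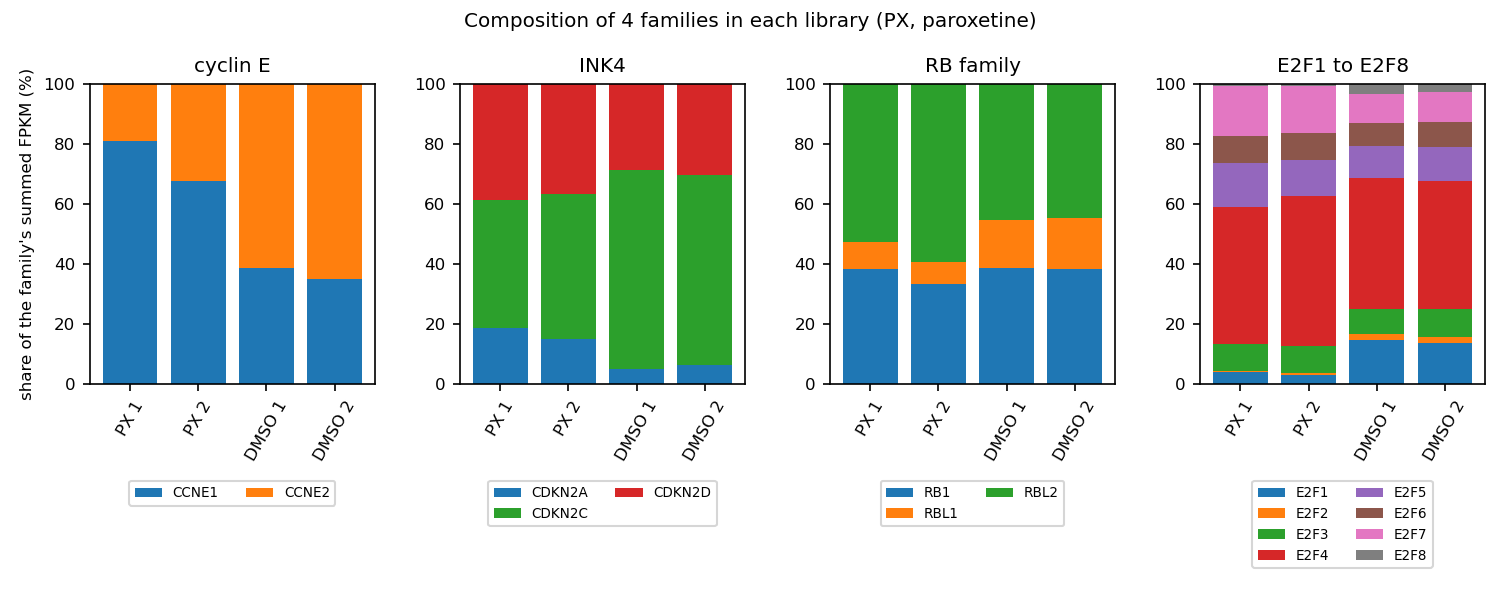
Share of each gene in the summed FPKM of its family, in percent, for the E cyclins, the INK4 genes, the RB family and E2F1 to E2F8, with 1 bar per library and the paroxetine libraries (PX) left of the DMSO libraries. CCNE1 makes up 81.1% and 67.6% of cyclin E in the paroxetine libraries and 38.7% and 34.9% in the DMSO libraries, and CDKN2B, listed at 0, is not drawn.

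TFDP1, which encodes DP1, the main dimer partner that E2F1 to E2F6 need to bind DNA, had 49.9 and 51.3 FPKM in the paroxetine libraries and 121 and 109 FPKM in the DMSO libraries. The groups were far apart, with a change of -1.17 ± 0.07 (limma, adjusted p = 0.000466). TFDP2, its paralog, had 21.6 and 22.5 FPKM in the paroxetine libraries and 23.6 and 24.5 FPKM in the DMSO libraries, and the change of -0.12 (95% interval -0.30 to 0.06) was not called (limma, adjusted p = 0.25).

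The genes that release CDK activity all fell. CDC25A, the phosphatase that removes inhibitory phosphates from CDK2, had 7.78 and 6.41 FPKM in the paroxetine libraries and 26.6 and 23.6 FPKM in the DMSO libraries, a change of -1.69 ± 0.12 (limma, adjusted p = 0.000791). SKP2, the ubiquitin ligase subunit that marks p27 for destruction, had 12.2 and 9.86 FPKM in the paroxetine libraries and 30.6 and 33.5 FPKM in the DMSO libraries, a change of -1.46 ± 0.12 (limma, adjusted p = 0.00107). The groups of both genes were well apart, and the share of the DMSO mean left was 28.2% for CDC25A and 34.4% for SKP2. CKS1B, the cofactor that SKP2 needs to recognise p27, had 138 and 129 FPKM in the paroxetine libraries and 258 and 283 FPKM in the DMSO libraries, or 49.3% of the DMSO mean (-1.01 ± 0.07; limma, adjusted p = 0.000654). CKS2, its paralog, had 179 and 199 FPKM in the paroxetine libraries and 324 and 321 FPKM in the DMSO libraries (-0.77 ± 0.07; limma, adjusted p = 0.00116). The groups of both CKS genes were well apart. CDKN3, a phosphatase that acts on CDK2 and is itself a gene of dividing cells despite its inhibitor name, also fell, with 17.3 and 18.9 FPKM in the paroxetine libraries and 34.6 and 32.6 FPKM in the DMSO libraries (-0.86 ± 0.08; limma, adjusted p = 0.00144). The summed FPKM of CDKN1A and CDKN1B, 2 inhibitors whose proteins SKP2 can mark, was 8.09 and 10.5 times that of SKP2 in the paroxetine libraries and 2.40 and 2.17 times it in the DMSO libraries.

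The MuvB core binds either the repressors of DREAM or the activators B-MYB and FOXM1. LIN9, a core subunit, had 6.37 and 5.75 FPKM in the paroxetine libraries and 8.59 and 9.88 FPKM in the DMSO libraries, a change of -0.53 ± 0.13 (limma, adjusted p = 0.0262) that was no longer called without a filter (0.0642) or when any 1 library was left out (0.0678 to 0.131). LIN54, the subunit that contacts DNA, had 6.76 and 6.13 FPKM in the paroxetine libraries and 8.62 and 7.62 FPKM in the DMSO libraries, and its change of -0.29 (95% interval -0.61 to 0.03) was not called (limma, adjusted p = 0.128). Both genes had all paroxetine values below all DMSO values. Of 7 other MuvB partners 5 fell and 1 rose, against 20.5% of all tested genes lower and 18.1% higher (median log2 change -0.99). LIN52, 1 of the 5, named after its values were seen, lost its call (-0.54; limma, adjusted p = 0.0298) under 6 of the 11 alternatives. MYBL2, another of the 5, is also counted among the E2F targets described below. MYBL2, which encodes B-MYB, had 11.4 and 10.3 FPKM in the paroxetine libraries and 47.2 and 50.3 FPKM in the DMSO libraries (-2.07 ± 0.09), and FOXM1 had 29.5 and 33.2 FPKM in the paroxetine libraries and 80.5 and 75.8 FPKM in the DMSO libraries (-1.29 ± 0.08). The histone-binding subunit RBBP4 fell as well (-1.07 ± 0.08). The 1 that rose was the core subunit LIN37, named after its values were seen, with 17.7 and 16.9 FPKM in the paroxetine libraries and 9.24 and 6.47 FPKM in the DMSO libraries (1.06; limma, adjusted p = 0.007), a call lost without paroxetine replicate 1 (0.0531).

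Downstream of E2F, 40 target genes of G1 and S phase were set beside the members, and all 40 fell, with a median log2 change of -1.76 and a range of -2.60 to -0.66. The most negative changes were in MCM5 and MCM6, subunits of the replicative helicase, at 7.07 and 6.63 FPKM in the paroxetine libraries against 44.2 and 49.1 FPKM in the DMSO libraries for MCM5 (-2.60 ± 0.09), and -2.20 ± 0.09 for MCM6, and in UHRF1, a reader of hemimethylated DNA (-2.45 ± 0.13). In limma 0 of the 40 were called higher, also at an unadjusted p under 0.05. Of 29 genes of G2 and M phase that MuvB binds with B-MYB and FOXM1, 27 fell and 0 rose (0 also at an unadjusted p under 0.05), with a median of -1.04. ANLN, of the cytokinetic ring, changed by -1.55 ± 0.06, CDK1, the mitotic kinase, by -1.50 ± 0.05 and CDC20, an activator of the anaphase-promoting complex, by -1.47 ± 0.05. The 2 not called were CDC25B (-0.10; limma, adjusted p = 0.209) and CENPE (-0.45; limma, adjusted p = 0.111). In both lists the share called lower was far from the 20.5% of all genes, but both lists overlap gene groups already known to be lower in these data and give no independent evidence.

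Of 19 genes listed with the ligases that destroy cyclins, CDK inhibitors and E2F, 8 fell, 2 rose and 9 were not called (median -0.21). Besides subunits and adaptors the list holds FBXO5, an inhibitor of such a ligase, and an enzyme that removes ubiquitin, so its counts mix opposite roles. These are 42.1% lower and 10.5% higher, against 20.5% and 18.1% of all tested genes. Of the 8 that fell, DTL and FBXO5 are also among the E2F targets above, and CCNF is among the G2 and M phase genes. RBX1 and CUL4A lost their calls under 4 of the 11 alternatives each. FBXO5, RBX1 and CUL4A are named after their values were seen. DTL, which directs destruction of p21 and CDT1 in S phase, had 7.69 and 7.94 FPKM in the paroxetine libraries and 34.5 and 35.7 FPKM in the DMSO libraries (-2.03 ± 0.08). CCNF, of the SCF ligase that acts in G2, changed by -1.13 ± 0.10 and FBXO4, a ligase subunit reported to act on cyclin D1, by -1.07 ± 0.16. The 2 that rose were AMBRA1, an adaptor for destruction of D cyclins, with 15.2 and 15.8 FPKM in the paroxetine libraries and 8.15 and 9.74 FPKM in the DMSO libraries (0.73; limma, adjusted p = 0.00701), and BTRC (0.62; limma, adjusted p = 0.0283), both named after their values were seen. AMBRA1 kept its call under all 11 alternatives, and BTRC lost it under 5 of them, with no filter, without the trend, and without DMSO replicate 1 or either paroxetine replicate (0.0558 to 0.126). Of 8 kinases, cofactors and CDC25 phosphatases that set CDK activity, 5 fell and 1 rose, against the same shares of all tested genes (median -0.40). PKMYT1 (-1.13 ± 0.08) and WEE1 (-0.75 ± 0.14), the kinases that add inhibitory phosphates, fell together with CDC25C (-0.87 ± 0.14), a phosphatase that removes them. The calls of WEE1 (0.0548 to 0.0768) and CDC25C (0.0541) were lost without DMSO replicate 1, and that of WEE1 also without DMSO replicate 2. Also lower were CCNH (-0.33; limma, adjusted p = 0.0103) and MNAT1 (-0.47; limma, adjusted p = 0.0111), 2 subunits of the CDK-activating kinase. These 2, named after their values were seen, lost their calls under 3 and 2 of the 11 alternatives. The gene that rose was CDK7, the catalytic subunit of that kinase (0.29; limma, adjusted p = 0.0321), named after its values were seen. Its call was lost under the same 5 alternatives as that of BTRC (0.0752 to 0.135).

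Upstream of the cyclin D and inhibitor genes, 11 of 29 regulators rose, 6 fell and 12 were not called (median 0.19). The share lower, 20.7%, was near the 20.5% of all tested genes, and the share higher was 37.9%, against 18.1%. EGR1 and FOS, immediate early genes of growth signalling, rose. FOSL1, named after its values were seen, fell (-0.65; limma, adjusted p = 0.00889), a call lost under 2 of the 11 alternatives. EGR1 had 16.5 and 18.7 FPKM in the paroxetine libraries and 4.28 and 4.00 FPKM in the DMSO libraries (1.86 ± 0.12), and FOS had 7.71 and 10.1 FPKM in the paroxetine libraries and 3.12 and 2.44 FPKM in the DMSO libraries (1.39 ± 0.19). MYC, which promotes cyclin expression and represses CDKN1A, had 2.90 and 3.11 FPKM in the paroxetine libraries and 7.06 and 11.6 FPKM in the DMSO libraries (-1.33 ± 0.24), a call lost without either paroxetine replicate (adjusted p 0.0537 and 0.0608). The count of upstream regulators was 9 without either DMSO library or without paroxetine replicate 2, against 17, and that of the kinases, cofactors and CDC25 phosphatases was 2 without DMSO replicate 1 and 3 without DMSO replicate 2, against 6.

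**Figure D4:**
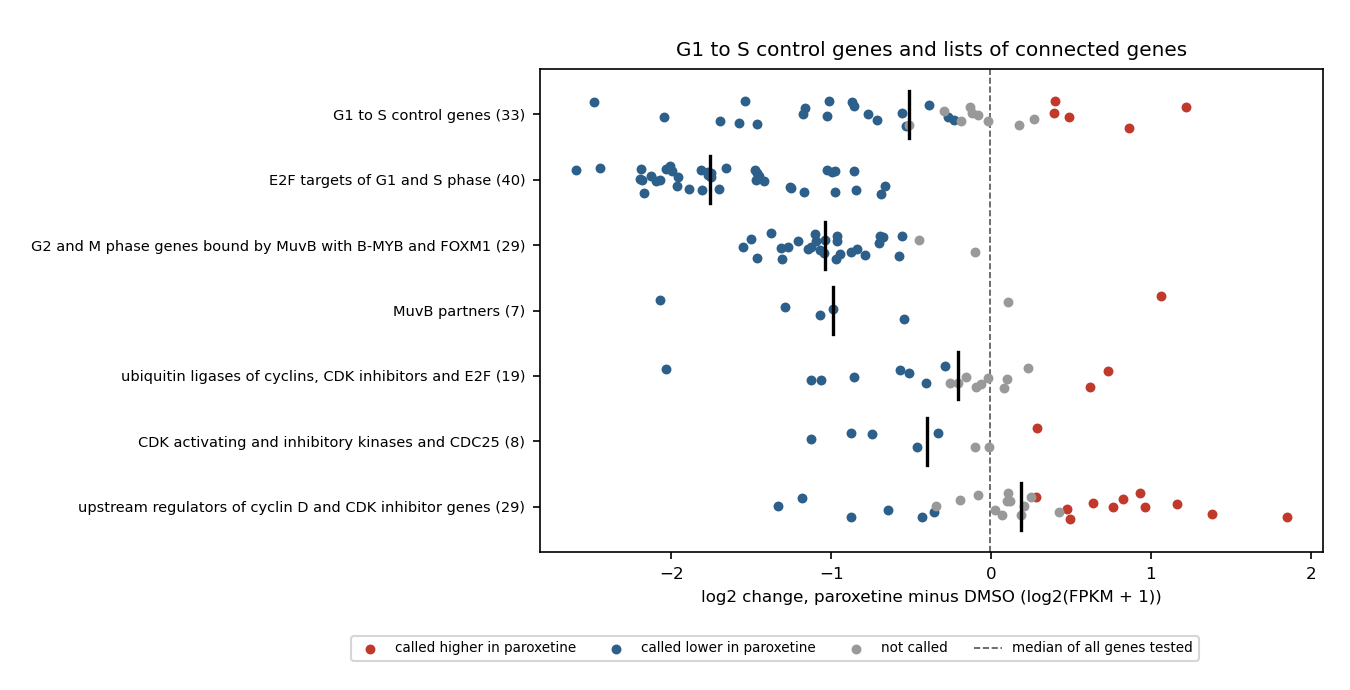
Difference of log2(FPKM + 1), paroxetine minus DMSO, of each tested gene (1 point each, spread vertically at random) in the G1 to S control genes and in 6 lists of connected genes, with the number of tested genes in brackets. Black lines mark the medians, which run from -1.76 for the E2F targets to 0.19 for the upstream regulators, and the dashed line marks the median of all genes tested.

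The promoter match was set beside these changes. RefSeq windows of 250 bases upstream were at hand for 28 of the 35 members, and CCND1, CCND2, CCNE2, CDK2, CDKN1C, E2F5 and E2F8 are named only. A match, on either strand, was present in 6 of the 28 members, against 3.40% of all 27305 genes with a window and 5.68% of those tested. It was present in 5 of 15 members that fell (E2F1, E2F2, RBL1, CDC25A and TFDP1), in 0 of 4 that rose, and in E2F3 among 8 not called. Over the tested genes with a window a match was present in 7.99% of those called lower and 4.00% of those called higher. Several starts per gene are listed for some members, and a gene counted as a match if any of its windows held one. For CCND3, CDK4, CDKN1A, CDKN1B, RB1, RBL2 and LIN54 every window lies inside the GENCODE gene. Sequence upstream of these genes was not searched. The search covers the exact 8 letters only, so that looser versions of the sequence were not counted.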

How the data were processed

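Gene expression was measured by RNA sequencing in 4 libraries of A375 cells, 2 treated with paroxetine hydrochloride and 2 with DMSO. The values are FPKM as deposited, made by the authors, and per the submitters' processing notes CASAVA 1.4, HISAT2 2.1.0, Cufflinks 2.2.1 and the build hg38 were used. How these were run, with which annotation, strand setting or scaling between libraries, is not stated there. Per the labels' protocols the library kit was directional and ribosomal RNA was depleted, yet poly(A) fractions and different sequencers are also named. Columns were matched to samples by name. A further 12 columns of bounds and status, whose names do not all match a title, were not used, so no interval per value is given.

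The genes reaching 1 FPKM in 2 or more libraries were fitted on log2(FPKM + 1) in limma 3.58.1 (R 4.3.3) with the mean-variance trend, 2 residual degrees of freedom, a two-sided test and adjustment by Benjamini-Hochberg across the whole tested table. Intervals (95%) are limma's. The fit was tested on simulated data. The replicate numbers do not mark pairs in the labels, and same-numbered libraries deviated from their group means with r = -0.0425 across genes. Coordinates and exon overlaps are from GENCODE 29 and promoter sequences from RefSeq on GRCh38.p14. All members are described, and up to 3 called genes of the largest change were named per list, with others named as such. Of the 30 G2 and M phase genes listed, 29 were analysed here. The 6 lists share 6 genes, and 1 further list that had been planned is not reported here. Members and lists were chosen with earlier results of these data known. Alternatives changed the pseudocount (0.1), the filter (none, or 5 FPKM), the scaling (trimmed means with 30% of log ratios and 5% of mean values trimmed, or quantiles), the trend, the replicate block and the libraries. Python 3.11.15, pandas 2.3.3 and matplotlib 3.10.9 were used.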

Additional observations from a re-analysis of the deposited data

How the results depend on the processing

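All 11 alternatives kept the direction of every tested member with 1 exception, E2F5, which was not called and ranged from -0.16 without paroxetine replicate 1 to 0.12 without paroxetine replicate 2, against -0.02. The members called lower numbered 17 to 19 under the other settings and 15 to 18 when a library was left out, and those called higher numbered 5 under the other settings and 2 to 4 when a library was left out (2 without DMSO replicate 1 or paroxetine replicate 1, 3 without DMSO replicate 2). With replicate number as a replicate block, 18 members were called lower and 5 higher, RB1 alone lost its call (adjusted p = 0.0886), and 2883 and 2492 of all genes were called lower and higher. The labels do not make the numbers pairs, and no other member's call changed with the block.

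Counts over all genes, 3184 lower and 2811 higher, were 1773 to 2221 and 1442 to 1539 when a library was left out. Quantile normalization moved the split to 2911 lower and 2988 higher. Of the connected lists, upstream regulators had 9 to 12 calls without 1 library, against 17, and CDK kinases, cofactors and CDC25 phosphatases 2 to 4, against 6. With 3 libraries fewer samples enter the fit, and the lone library of a group is assumed to vary like the other group. The depth in reads is unknown, so how far counting error limits low genes such as E2F2 and E2F8 cannot be given.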
